A study of Mus musculus with 6 samples.

Results

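The 44 genes described here encode the machinery of the lysosome: the subunits of its proton pump, a set of its digestive enzymes and membrane proteins, and the transcription factors that control them. They were listed by gene symbol for their known roles, with earlier results of these data known, and all 44 were found among the 22966 genes of the count table. The libraries are RNA sequencing of primary hepatic stellate cells, the liver pericytes that turn into collagen-producing myofibroblasts after injury. There were 3 libraries titled Cre and 3 titled flox. The study concerns deletion of butyrylcholinesterase from hepatocytes and asks how the enzyme acts on stellate cells. Every library carried the genotype entry BucheHep and the treatment entry CCl4, a hepatotoxin used to cause liver fibrosis, so both groups had the toxin and the titles alone separate them. The labels do not spell out what Cre and flox stand for, and the flox libraries are taken as the reference after the usual naming of floxed controls. They give no strain, age or sex, no promoter for Cre, no dose or duration of CCl4, and do not say whether each library is a separate animal. The p-values below therefore measure the spread between these libraries, which may be technical. A RNA input of 1.3 µg per library is given.

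The lysosome is the acidic compartment in which cells digest what they engulf and what autophagy delivers. Its acid comes from the V-ATPase, a rotary pump whose cytosolic V1 sector splits ATP and whose membrane V0 sector carries protons. Many genes of the pump and of the hydrolases are induced together by the MiT/TFE factors TFEB, TFE3 and MITF, which bind E-box elements near the start sites of their targets. In the liver, Kupffer cells, the resident macrophages, are rich in lysosomes, while stellate cells digest their own lipid droplets through them.

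Total counts were 37273142 to 39377787 in the Cre libraries and 38452088 to 41006722 in the flox libraries, and the lowest count of any of the 44 genes in a library was 284. Bche, the gene of butyrylcholinesterase, had 15, 8 and 2 counts in Cre 1, 2 and 3 and 17, 6 and 21 in flox 1, 2 and 3, and since the deletion is in hepatocytes these counts do not check the titles. Stellate genes were present in all 6 libraries, with Col1a1 at 490 to 836 CPM (read counts scaled to library size, with TMM normalisation) in Cre and 243 to 797 CPM in flox. Lrat, the retinol-esterifying enzyme of quiescent stellate cells, was at 0.169 to 1.03 CPM in Cre and 0.124 to 2.49 CPM in flox. The preparations also held macrophage RNA, and the groups differed in it. Of 24 macrophage and Kupffer cell markers, 22 were called lower in Cre and 0 higher, with a median log2 fold change of -2.81 and no marker at 0 counts in any library. Their summed level was 2036 to 3151 CPM in Cre and 9318 to 23151 CPM in flox. The low end in flox is flox 3, so that library stood apart from flox 1 and flox 2 at 18064 and 23151 CPM. A list of 18 stellate markers summed to 4969 to 6377 CPM in Cre and 3744 to 5862 CPM in flox. As listed, the macrophage sum was below the stellate sum in every Cre library and above it in every flox library. Vim and Sparc alone were at 1400 and 1260 of the 4969 CPM of the stellate sum in Cre 1. Without these genes the macrophage sum of Cre 1, 2866 CPM, would be above its stellate sum. Sums over unlike lists do not give cell fractions. In bulk RNA, fewer cells of a type and less RNA per cell cannot be told apart. The part of the macrophage RNA in the results below was not tested.

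Genes of the lysosome were lower in the Cre libraries over a broad front. Of the 44 genes, all of which passed the filter on low counts, 22 were called lower and 0 higher by edgeR's quasi-likelihood test at a Benjamini-Hochberg adjusted p below 0.05. That is 50% lower, where 8.94% of the 14795 genes tested were called lower and 6.35% higher. The median log2 fold change of the 44 (Cre over flox, as throughout) was -0.69, against 0.01 over all genes tested. With no composition factor, which puts the median of all genes at 0.17, 17 were lower and 1, Smpd1, was higher, while the calls over all genes turned to 1066 lower and 1415 higher. The log2 fold changes of the 22 called genes ran from -2.36 to -0.42, with adjusted p of 0.0237 to 0.0452. Among the 22, 11 were lower by a factor of at least 2. The Cre libraries lay below all flox libraries for 30 of the 44 genes and above them for 2, where 20.0% and 19.6% of all genes tested did so.

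The summed level of the 44 genes was 14713, 15171 and 16489 CPM in Cre 1, 2 and 3, and 33130, 36850 and 19736 CPM in flox 1, 2 and 3. Every Cre library was below every flox library, and flox 3 was closest to them. Flox 3 was the lowest flox library for 93.2% of the 44 genes, against 44.9% of all genes tested. On the log scale it lay nearer to the Cre mean than to the mean of flox 1 and flox 2 for 35 of the 44 genes, or 79.5%, against 56.9% of all genes tested. Without flox 3, 37 members were called lower and 0 higher, and the calls over all genes also grew, to 2882 lower, or 18.8% of those tested, and 2447 higher. With Cre 1 or Cre 2 omitted, 0 members and 0 of all genes passed the edgeR threshold, and 27 and 30 members were lower at an unadjusted p below 0.05. The same count of 0 came with flox 1 or flox 2 omitted, with 28 and 30 members lower at that level. With Cre 3 omitted, 4 members were called lower, beside 598 of all genes, or 3.91%, called lower and 771 called higher. DESeq2 called 34 lower on all 6 libraries and limma-voom 14, beside 15.9% and 5.58% of all genes called lower.

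**Figure D1:**
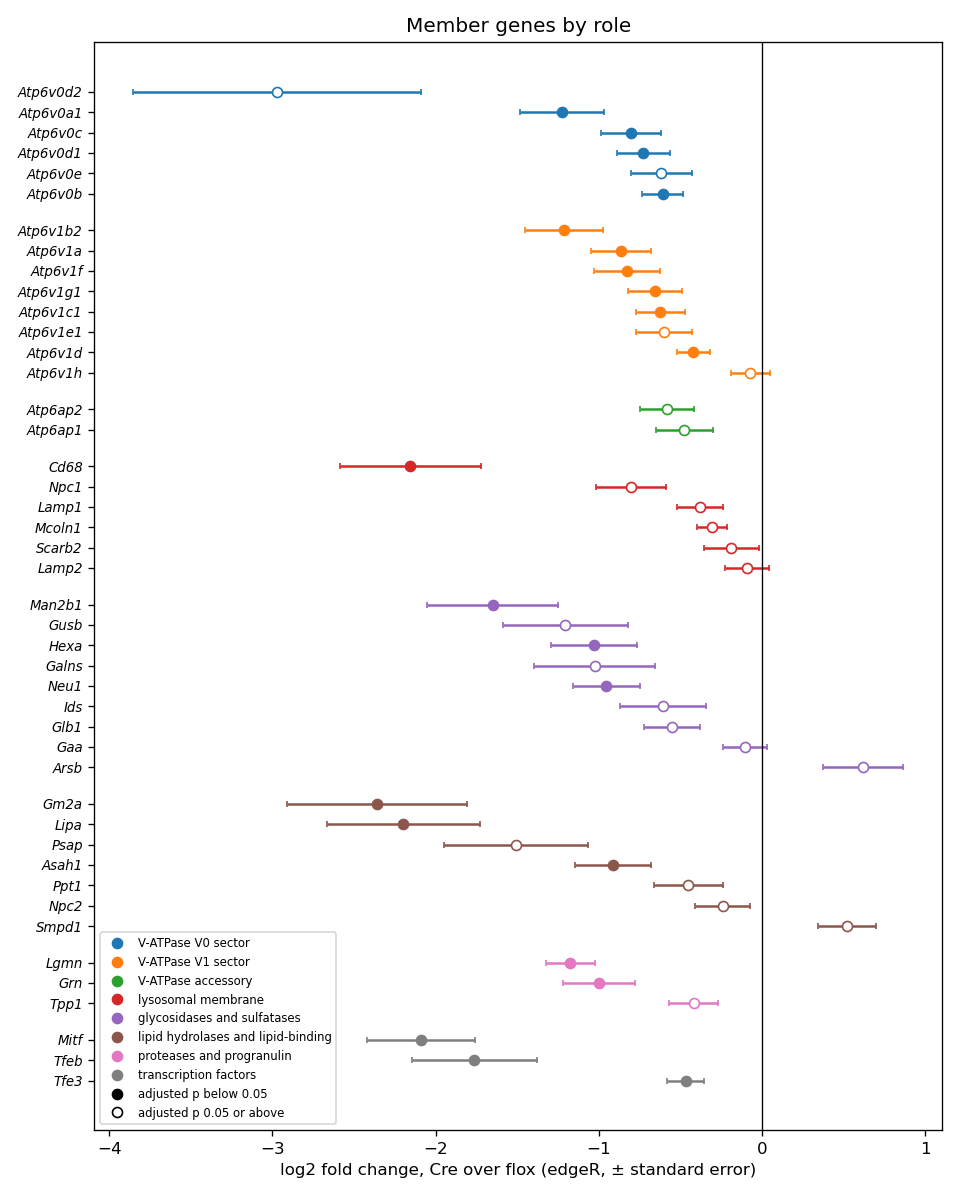
Log2 fold change, Cre over flox, of each of the 44 genes with its standard error (edgeR, n = 3 libraries per group), grouped by role. Filled points have an adjusted p below 0.05. All 22 filled points lie left of 0, and 2 genes, Arsb and Smpd1, lie right of it.

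**Figure D2:**
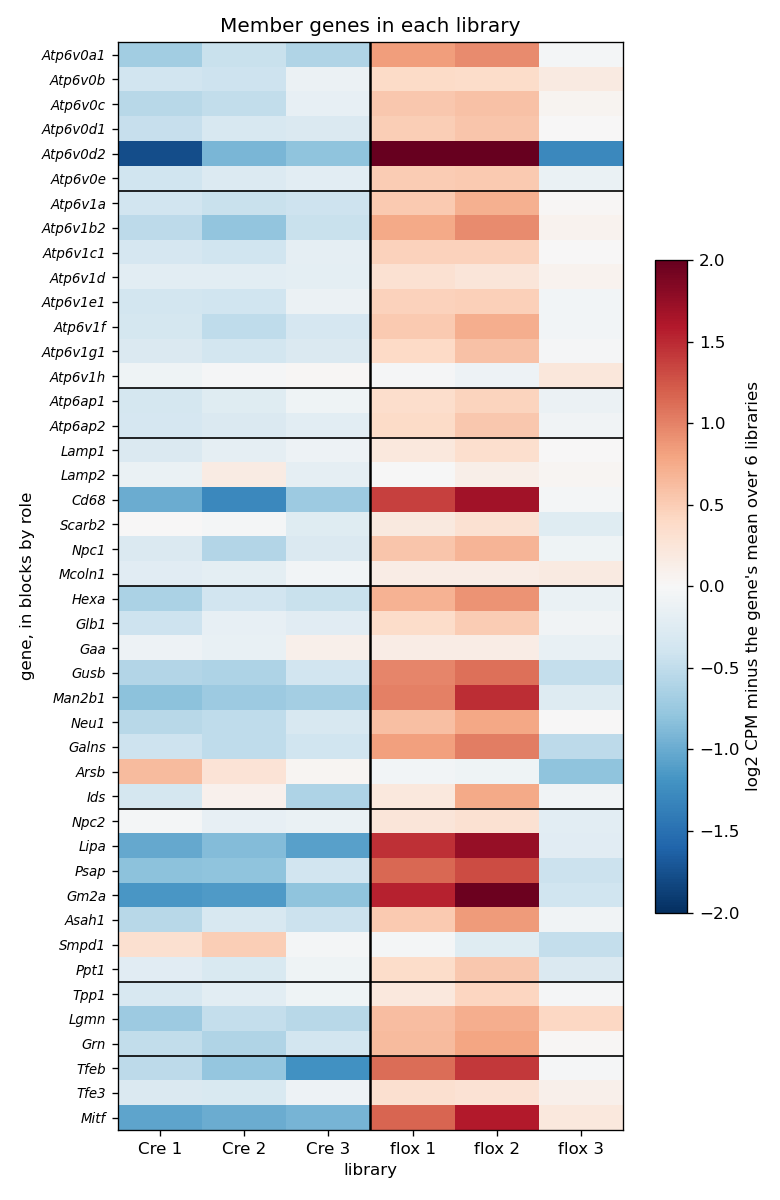
Level of each gene in each library, as log2 CPM minus the gene's mean over the 6 libraries, with colours capped at -2 and 2. Cre 1 to 3 are mostly blue, flox 1 and flox 2 red, and flox 3 pale for most genes.

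The V0 sector of the pump, the proton-carrying part in the membrane, was lower in Cre, with a median log2 fold change of -0.77. Of its 6 genes 4 were called lower, beside 8.94% of all genes, and 0 higher. Atp6v0a1 encodes the a1 form of the large subunit that steers the pump to membranes. It was at 99.0, 118 and 106 CPM in Cre 1, 2 and 3, against 288, 310 and 156 CPM in flox 1, 2 and 3. The groups did not overlap, and the log2 fold change was -1.23 ± 0.26 (standard error, adjusted p = 0.0309). Atp6v0c, the proteolipid of the rotating ring, was at 253, 264 and 330 CPM in Cre and 536, 556 and 385 CPM in flox (-0.80 ± 0.18, adjusted p = 0.0366). Its groups came within a factor of 1.17 of each other, and its reads may be shared with the pseudogenes Atp6v0c-ps1 and Atp6v0c-ps2. Atp6v0b, a second ring proteolipid whose exons overlap Gm12841 on the opposite strand, was at 182, 178 and 218 CPM in Cre and 309, 305 and 269 CPM in flox (-0.61 ± 0.12, adjusted p = 0.0287). Here flox 3 was close to the other flox libraries. Atp6v0d1, the ubiquitous form of the stalk subunit d, was at 122, 134 and 137 CPM in Cre and 236, 247 and 169 CPM in flox (-0.73 ± 0.16, adjusted p = 0.0347). Atp6v0e, a small membrane subunit, was at 83.7 ± 5.38 CPM in Cre and 128 ± 30.4 CPM in flox (SD, n = 3 each) and missed the threshold at a log2 fold change of -0.62 ± 0.19 (adjusted p = 0.0689).

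Atp6v0d2 encodes the d2 form of the same stalk subunit, known from osteoclasts and macrophages. It was at 11.6, 21.0 and 22.9 CPM in Cre 1, 2 and 3, and at 186, 234 and 16.4 CPM in flox 1, 2 and 3. Flox 3 thus fell within the Cre libraries while flox 1 and flox 2 were far above them, and of the 44 genes this one had the lowest fold change, -2.97 ± 0.88 (edgeR adjusted p = 0.0653). Without flox 3 the log2 fold change was -3.50, and its adjusted p ran from 0.000859 to 0.226 over 15 alternatives. Atp6v0d2 was also the 1 gene of the 44 with a fold change below the macrophage marker median of -2.81.

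The V1 sector, the ATP-splitting part, was lower too, with a median log2 fold change of -0.64. Of its 8 genes 6 were called lower, beside 8.94% of all genes, and 0 higher. Atp6v1b2, the B subunit of the catalytic hexamer, was at 308, 254 and 323 CPM in Cre and 743, 847 and 462 CPM in flox (-1.21 ± 0.24, adjusted p = 0.0270). Its partner Atp6v1a, the subunit that hydrolyses ATP, was at 300.4, 289 and 295 CPM in Cre and 568, 641 and 399 CPM in flox (-0.86 ± 0.18, adjusted p = 0.0312). For both genes the flox libraries were more spread than the Cre libraries. The Cre SD was 5.80 CPM for Atp6v1a and 36.3 CPM for Atp6v1b2, at means of 295 CPM. Atp6v1d, part of the central shaft, was at 97.5, 97.2 and 98.9 CPM in Cre and 140.0, 134 and 119 CPM in flox. That is the smallest difference among the 22 called genes, at -0.42 ± 0.10 (adjusted p = 0.0389). Atp6v1f, which sits on the same shaft, was at 65.2, 58.9 and 66.4 CPM in Cre and 120, 138 and 79.9 CPM in flox (-0.83 ± 0.20, adjusted p = 0.0422). The stator genes Atp6v1c1 (-0.62 ± 0.15) and Atp6v1g1 (-0.66 ± 0.16) were called lower as well, with adjusted p of 0.0422 and 0.0438. Atp6v1e1, whose exons overlap Slc25a18 on the opposite strand, stood at -0.60 ± 0.17 (adjusted p = 0.0610). Atp6v1h, the regulatory H subunit, overlapping Rgs20 on the opposite strand, was not called. Its levels were 186, 195 and 201 CPM in Cre and 195, 185 and 232 CPM in flox, with flox 3 highest, and its log2 fold change was -0.07 with a 95% interval from -0.40 to 0.26. The sign of Atp6v1h turned to 0.08 with library totals, to 0.09 on both FPKM scales and to 0.03 without flox 3.

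Of the accessory proteins, which help assemble the pump in the secretory pathway, neither passed the test. Atp6ap1 was at 323 ± 29.1 CPM in Cre and 449 ± 89.1 CPM in flox (-0.48 ± 0.17, adjusted p = 0.104). Atp6ap2, also called the prorenin receptor, was at 164 ± 7.71 CPM in Cre and 246 ± 51.5 CPM in flox (-0.58 ± 0.17, adjusted p = 0.0609). Over all 16 V-ATPase genes the summed level was 2697 ± 171 CPM in Cre and 4588 ± 994 CPM in flox (SD, n = 3 each), with the Cre libraries at 2599, 2598 and 2895 CPM and the flox libraries at 4958, 5343 and 3462 CPM.

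Per length, on the deposited FPKM scale, the 14 genes of the V0 and V1 sectors had mean levels of 4.79 to 195 FPKM in Cre and 32.9 to 304 FPKM in flox. Atp6v0c was the highest in both groups and Atp6v0d2 the lowest. Atp6v0d2 made up 3.70%, 5.97% and 6.34% of the FPKM of both d genes in Cre 1, 2 and 3, and 24.2%, 27.7% and 3.78% in flox 1, 2 and 3. The log2 ratio of Atp6v0d2 to Atp6v0d1 was -4.16 ± 0.44 in Cre and -2.55 ± 1.81 in flox, a difference of -1.60 (exact permutation test, two-sided, p = 0.3, where 0.1 is the smallest possible). With 3 libraries per group the test did not tell the groups apart. The flox ratios were -1.64, -1.38 and -4.64 in flox 1, 2 and 3, so their wide spread came from flox 3. The Cre ratios were -4.66, -3.95 and -3.86 in Cre 1, 2 and 3. Among the subunit a genes, Tcirg1, the a3 form of osteoclasts and macrophages, held 63.2 ± 3.36% of the FPKM in Cre and 68.8 ± 1.47% in flox. Atp6v0a1 held 17.3 ± 1.76% in Cre and 20.4 ± 2.23% in flox, and Atp6v0a2 19.5 ± 1.61% in Cre and 10.8 ± 3.60% in flox. The log2 ratio of Tcirg1 to Atp6v0a1 differed by 0.11 between the groups (exact permutation p = 0.7; adjusted over the 2 ratios the p-values were 0.6 for the d genes and 0.7 for the a genes). Atp6v0a2, named after its values were seen, was at 115 ± 7.75 CPM in Cre and 118 ± 5.69 CPM in flox. Its log2 fold change was -0.04 ± 0.10, with a 95% interval from -0.31 to 0.24.

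**Figure D3:**
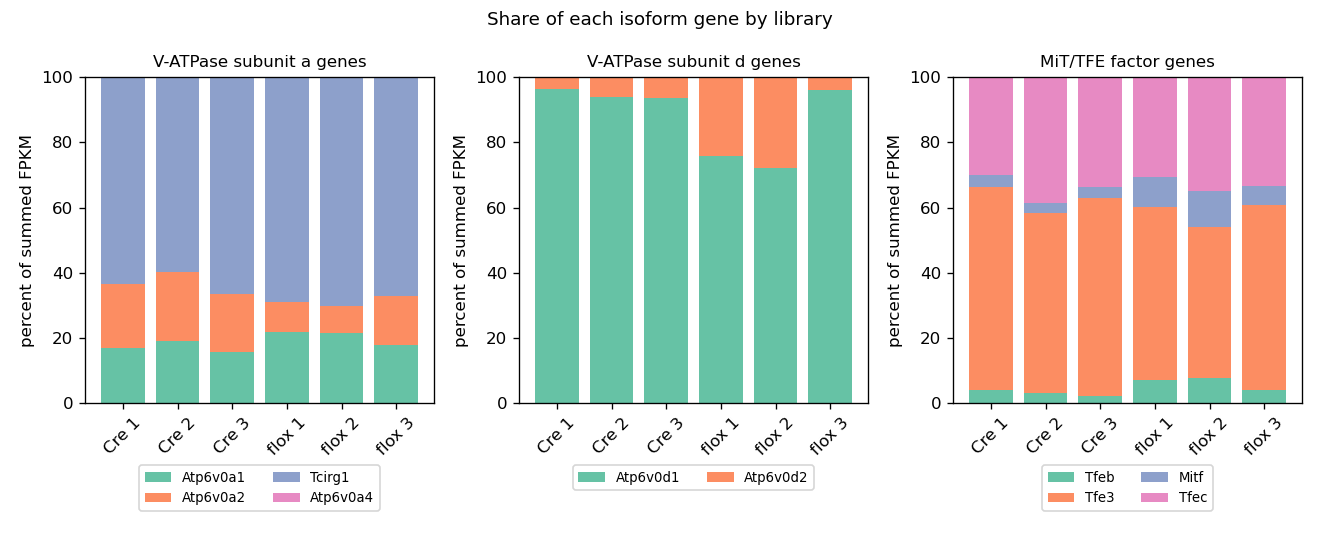
Share of each gene in the summed FPKM of its set, by library, for the V-ATPase subunit a genes, the subunit d genes and the MiT/TFE factors. Atp6v0d2 takes 24.2% and 27.7% in flox 1 and flox 2 and no more than 6.34% in the other libraries, flox 3 included.

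Of the 6 lysosomal membrane proteins 1, Cd68, was called lower and 0 higher, where 8.94% of all genes tested were called lower. Their median log2 fold change was -0.34. Cd68, a heavily glycosylated membrane protein of macrophage lysosomes, was at 227, 185 and 275 CPM in Cre and 1175, 1444 and 441 CPM in flox (-2.16 ± 0.43, adjusted p = 0.0278). Even flox 3 was above every Cre library, by a factor of 1.61. Lamp1, with Lamp2 the most abundant coat protein of the lysosomal membrane, was at 1635, 1755 and 1853 CPM in Cre and 2306, 2524 and 2009 CPM in flox. Its groups did not overlap, but the log2 fold change of -0.38 ± 0.14 missed the threshold (adjusted p = 0.108), and its exons overlap Grtp1 on the opposite strand. Lamp2, which also serves in chaperone-mediated autophagy, was at 776, 961 and 756 CPM in Cre and 849, 926 and 881 CPM in flox. These groups overlapped, at a log2 fold change of -0.09 with a 95% interval from -0.47 to 0.28, and the sign turned to 0.07 with library totals and to 0.06 on both FPKM scales. Npc1, the cholesterol exporter of the membrane, just missed the threshold at -0.80 ± 0.21 (adjusted p = 0.0509). Its exons overlap those of Rmc1 on the opposite strand. The calcium channel Mcoln1 was at 77.7 ± 4.85 CPM in Cre and 96.1 ± 1.08 CPM in flox (-0.31 ± 0.09, adjusted p = 0.0675), with flox 3 the highest of the flox libraries. Scarb2, an integral membrane protein that also acts as a sorting receptor, stood at -0.19 ± 0.17 (adjusted p = 0.458).

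Of the 9 glycosidases and sulfatases, enzymes that take apart sugar chains and glycosaminoglycans, 3 were called lower, beside 8.94% of all genes, and 0 higher. Their median log2 fold change was -0.95. Man2b1, the acid alpha-mannosidase, was at 97.2, 105 and 108 CPM in Cre and 348, 480 and 144 CPM in flox (-1.65 ± 0.40, adjusted p = 0.0415). Neu1, the sialidase, was at 68.4, 70.0 and 80.0 CPM in Cre and 152, 172 and 100 CPM in flox (-0.95 ± 0.21, adjusted p = 0.0320). Hexa, the enzyme gene of Tay-Sachs disease, was at 239, 282 and 273 CPM in Cre and 598, 690 and 336 CPM in flox (-1.03 ± 0.26, adjusted p = 0.0452). In all 3 the groups were apart and flox 3 was nearest to the Cre libraries, and exons of Hexa overlap Tmem202 on the opposite strand. Gusb, the beta-glucuronidase, had a larger difference than Neu1 and Hexa, -1.21 ± 0.38, but was not called (adjusted p = 0.0776). Its flox 3 level of 127 CPM lay among the Cre libraries at 116 to 136 CPM. Galns, a sulfatase of keratan sulfate, showed the same overlap at -1.03 ± 0.37 (adjusted p = 0.104). The beta-galactosidase Glb1, sharing exon sequence with Tmppe on the same strand, was at -0.55 ± 0.17 and the iduronate sulfatase Ids at -0.61 ± 0.26, with adjusted p of 0.0707 and 0.156. Gaa, the acid alpha-glucosidase that digests glycogen, was at 278 ± 26.6 CPM in Cre and 299 ± 35.6 CPM in flox. Its log2 fold change of -0.11 had a 95% interval from -0.48 to 0.26, and its sign turned to 0.06 with library totals and to 0.05 on both FPKM scales. Arsb, the sulfatase of dermatan and chondroitin sulfate, went the other way, with 47.4, 37.0 and 31.4 CPM in Cre and 29.3, 28.7 and 17.4 CPM in flox. Its Cre libraries were all above its flox libraries, yet the log2 fold change of 0.62 ± 0.25 missed the threshold (adjusted p = 0.130).

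Among the 7 genes of lipid digestion, 3 were called lower, beside 8.94% of all genes, and 0 higher, with a median log2 fold change of -0.92. Gm2a, the activator that lifts ganglioside GM2 out of membranes for digestion, was at 30.7, 31.4 and 39.3 CPM in Cre and 199, 269 and 52.2 CPM in flox (-2.36 ± 0.55, adjusted p = 0.0383). Lipa, the acid lipase that frees cholesterol and fatty acids from lipoprotein lipids, was at 180, 200 and 173 CPM in Cre and 1003, 1218 and 313 CPM in flox (-2.20 ± 0.47, adjusted p = 0.0315). Asah1, the acid ceramidase, was at 203, 239 and 221 CPM in Cre and 430, 537 and 283 CPM in flox (-0.92 ± 0.23, adjusted p = 0.0451). The falls of Gm2a and Lipa were the 2 largest of the called genes, 5.14-fold and 4.59-fold lower in Cre, and flox 3 was below flox 1 and flox 2 in each of these 3 genes. Psap, named after its values were seen, encodes the precursor of the saposins, the activators of sphingolipid digestion. It was at 2479, 2525 and 3368 CPM in Cre and 9737, 10845 and 3249 CPM in flox, with flox 3 below Cre 3. The log2 fold change of Psap was -1.51 ± 0.44 (adjusted p = 0.0636), and without it the summed level of the other 43 genes was 12667 ± 444 CPM in Cre and 21962 ± 4918 CPM in flox (SD, n = 3 each). Smpd1, the acid sphingomyelinase, was higher in every Cre library, at 76.3, 86.2 and 59.8 CPM, than in every flox library, at 59.6, 51.6 and 43.98 CPM. Cre 3 and flox 1 nearly met, and the log2 fold change of 0.52 ± 0.18 missed the edgeR threshold (adjusted p = 0.0897, from 0.0412 to 0.208 over 15 alternatives). Npc2, the soluble cholesterol carrier that hands over to Npc1, was at -0.24 ± 0.17, and the palmitoyl thioesterase Ppt1, overlapping Cap1 on the opposite strand, at -0.45 ± 0.21, with adjusted p of 0.339 and 0.184.

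Lgmn, the asparaginyl endopeptidase legumain, had the lowest p of the 44 genes. It was at 1444, 1713 and 1616 CPM in Cre and 3654, 3953 and 3167 CPM in flox, a log2 fold change of -1.17 ± 0.15 (adjusted p = 0.0237). Flox 3 stayed with the other flox libraries here and was 1.85 times the highest Cre library. With 1 library left out its log2 fold change ran from -1.25 to -1.08. Grn, which encodes progranulin, the precursor of lysosomal granulins, was at 1530, 1418 and 1653 CPM in Cre and 3329, 3715 and 2170 CPM in flox (-1.002 ± 0.22, adjusted p = 0.0335), and its exons overlap Fam171a2 on the opposite strand. Tpp1, the tripeptidyl peptidase whose loss causes a neuronal ceroid lipofuscinosis, was at 412 ± 34.7 CPM in Cre and 552 ± 87.4 CPM in flox (-0.42 ± 0.15, adjusted p = 0.101).

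All 3 MiT/TFE transcription factors were called lower in Cre, beside 8.94% of all genes, and by very different amounts. Mitf was at 13.6, 14.1 and 14.8 CPM in Cre 1, 2 and 3, against 63.3, 84.8 and 32.7 CPM in flox 1, 2 and 3. The lowest flox library was 2.21 times the highest Cre library, the widest such gap of the 44 genes, and the log2 fold change was -2.09 ± 0.33 (adjusted p = 0.0238). Tfeb was at 11.2, 9.49 and 6.95 CPM in Cre, against 35.1, 42.9 and 15.9 CPM in flox (-1.76 ± 0.38, adjusted p = 0.0328). Its groups were apart by a factor of 1.42. Tfe3 was at 91.0, 90.1 and 103 CPM in Cre and 138, 137 and 119 CPM in flox (-0.47 ± 0.11, adjusted p = 0.0392). Over the 9 alternatives that kept all 6 libraries, Mitf was called in 8, Tfeb in 6 and Tfe3 in 4. Per length, Tfe3 was the abundant factor of these 3 and Mitf and Tfeb the sparse ones in both groups. Tfe3 was at 24.4 ± 1.55 FPKM in Cre and 30.2 ± 1.07 FPKM in flox, Mitf at 1.37 ± 0.0367 FPKM in Cre and 5.16 ± 2.02 FPKM in flox, and Tfeb at 1.29 ± 0.318 FPKM in Cre and 3.86 ± 1.56 FPKM in flox. Of the summed FPKM of the family, Mitf and Tfeb held 3.35 ± 0.134% and 3.18 ± 0.970% in Cre, and 8.61 ± 2.52% and 6.43 ± 2.03% in flox. The family's remaining member, Tfec, whose expression is largely myeloid, was at 48.3, 69.1 and 62.9 CPM in Cre and 88.3, 113 and 76.8 CPM in flox (-0.62 ± 0.19, adjusted p = 0.0720). Tfec held 34.1 ± 4.21% of the family's FPKM in Cre and 33.0 ± 2.14% in flox, second to Tfe3 at 59.4% and 51.9%.

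**Figure D4:**
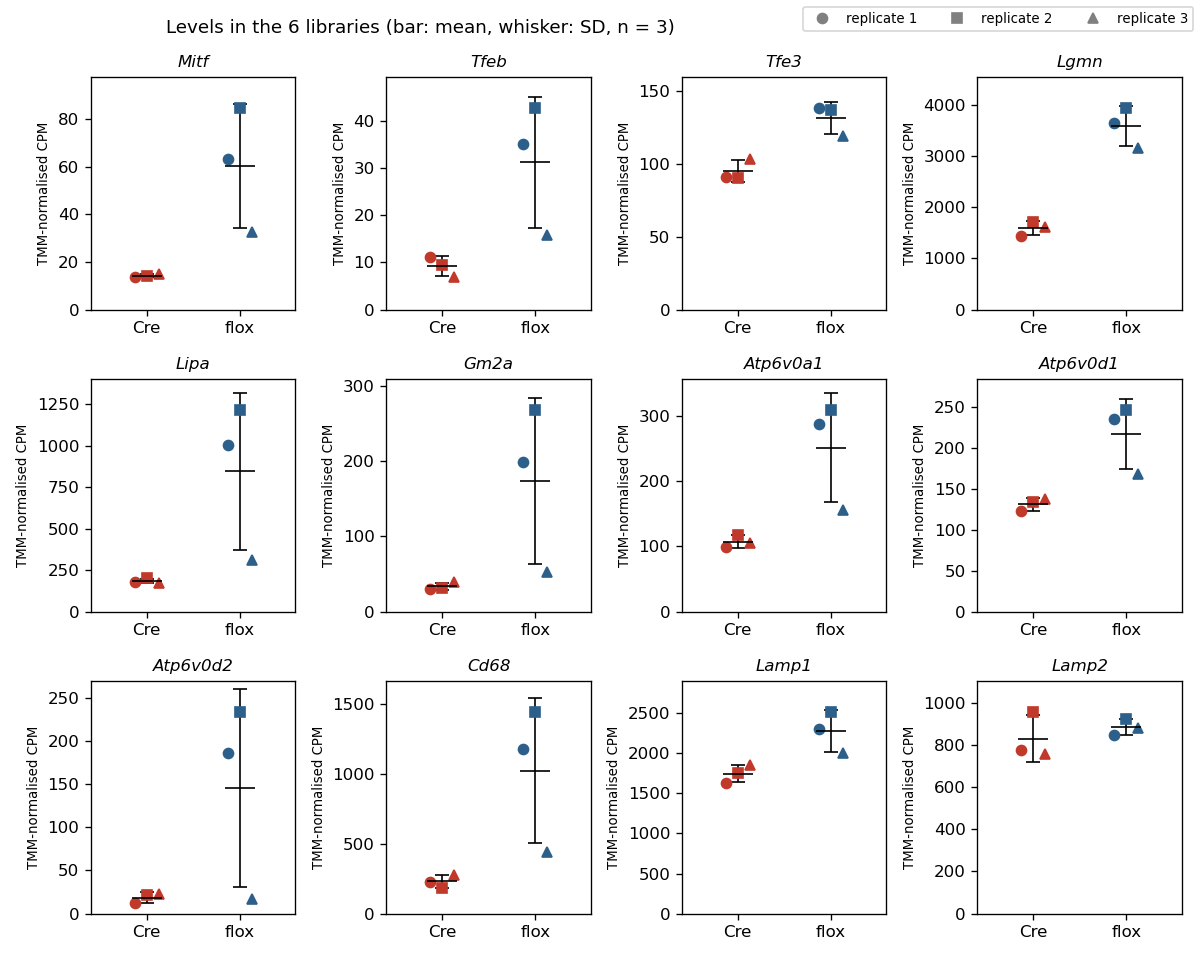
TMM-normalised CPM of 12 of the genes in the 6 libraries, with the mean (bar) and SD (whisker) of each group, n = 3, and a marker shape per replicate number. Flox 3 (triangle) lies among the Cre libraries for Atp6v0d2 and well above them for Mitf and Lgmn, while Lamp2 overlaps between the groups.

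The promoters of these genes are shown because MiT/TFE factors bind E-boxes. Only the mRNA of these factors was measured, and a link from it to the other genes was not tested. The windows run from 250 bases before to 50 after the start site, are from RefSeq on GRCm38.p6, and were found for 36 of the 44 genes. The letters CACGTG, the E-box core, which read the same on both strands, were in a window of 9 of the 36 genes, or 25.0%. Over all genes of the promoter table the share was 8.09%, over the genes tested here 11.2%, and over the other lysosomal genes described below 23.6%. The longer CLEAR consensus, the same core with GT directly before it and AC directly after it, was in none of the 36 and in 0.739% of the genes tested. TCATGTG, searched on both strands and a different string from the core, was in 5 of the 36 genes, or 13.9%, and in 2.97% of the genes tested. The 4 windows below carry the most copies of the core or, for Atp6v0d1, place it across the start site, and capitals mark CACGTG.
Lamp1, chr8:13158911-13159210, plus strand: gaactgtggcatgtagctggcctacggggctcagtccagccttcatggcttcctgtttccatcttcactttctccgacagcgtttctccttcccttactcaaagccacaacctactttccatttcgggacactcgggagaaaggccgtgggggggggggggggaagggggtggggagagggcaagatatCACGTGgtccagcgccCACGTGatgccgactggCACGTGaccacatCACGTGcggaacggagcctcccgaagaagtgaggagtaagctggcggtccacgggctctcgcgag
Atp6v0b, chr4:117887280-117887579, minus strand: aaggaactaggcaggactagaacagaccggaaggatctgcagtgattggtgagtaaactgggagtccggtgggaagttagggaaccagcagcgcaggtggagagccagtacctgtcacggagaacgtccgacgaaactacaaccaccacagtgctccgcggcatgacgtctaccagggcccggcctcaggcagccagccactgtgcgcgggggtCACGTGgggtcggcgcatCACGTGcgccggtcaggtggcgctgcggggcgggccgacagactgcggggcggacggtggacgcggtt
Mcoln1, chr8:3500269-3500568, plus strand: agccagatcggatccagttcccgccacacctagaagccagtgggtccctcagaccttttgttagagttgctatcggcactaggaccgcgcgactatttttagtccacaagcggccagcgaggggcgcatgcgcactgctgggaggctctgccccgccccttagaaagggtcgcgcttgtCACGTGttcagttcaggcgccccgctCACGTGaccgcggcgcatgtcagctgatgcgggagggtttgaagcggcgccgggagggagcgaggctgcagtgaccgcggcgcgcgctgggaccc
Atp6v0d1, chr8:105566015-105566314, minus strand: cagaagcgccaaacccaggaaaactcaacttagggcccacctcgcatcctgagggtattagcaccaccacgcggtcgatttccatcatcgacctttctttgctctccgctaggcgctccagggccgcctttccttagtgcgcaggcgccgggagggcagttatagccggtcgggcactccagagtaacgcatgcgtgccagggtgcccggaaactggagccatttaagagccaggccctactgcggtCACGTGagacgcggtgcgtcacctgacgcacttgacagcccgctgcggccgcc
Lamp1 holds 4 copies, and Atp6v0b and Mcoln1 hold 2 each. Of the 9 genes with the core, 4 were called lower, with a median log2 fold change of -0.61. Of the 27 genes without it 14 were called lower, with a median of -0.80. Over all genes tested 8.94% were called lower, and these were not split by the core. Lamp1 and Mcoln1 were not called, and Atp6v0b and Atp6v0d1 were. These matches are descriptions of letters and not of binding.

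Other lysosomal genes were also lower in part. Of 124 tested in 5 lists of pump isoforms and assembly factors, hydrolases, sorting proteins, membrane proteins and regulators, 34 were called lower and 1 higher, or 27.4% lower, beside 8.94% of all genes, with a median log2 fold change of -0.45. Without a composition factor 24 were lower and 2 higher. The pump list had 3 of 15 lower. Tcirg1 was at 257, 254 and 311 CPM in Cre and 633, 706 and 410 CPM in flox (-1.09 ± 0.22, adjusted p = 0.0278), and the assembly factors Ccdc115 (-0.68 ± 0.16) and Dmxl2 (-0.44 ± 0.11) also fell. Of 39 hydrolases and cofactors 12 fell, those of lowest p being the acid nuclease Dnase2a (-1.71 ± 0.30), the acid phosphatase Acp2 (-1.79 ± 0.31) and the phospholipase Pla2g15 (-2.83 ± 0.49). The 1 that rose was Epdr1, a ganglioside-binding ependymin relative, at 1.26 ± 0.28 (adjusted p = 0.0345). Of 11 sorting genes 3 fell: Cln8, an exporter of enzymes from the endoplasmic reticulum (-1.25 ± 0.23), and the mannose 6-phosphate receptor adaptors Gga1 (-0.76 ± 0.17) and Gga3 (-0.66 ± 0.15). Of 36 membrane proteins 10 fell, led by the sterol transfer protein Stard3 (-1.21 ± 0.18), the phagosomal metal transporter Slc11a1 (-2.003 ± 0.33) and the endolysosomal ion channel Tpcn2 (-1.55 ± 0.26). Of 23 regulators 6 fell, among them Lamtor1, the lysosomal anchor of the mTORC1 scaffold (-0.62 ± 0.12), the E-box factor Usf2 (-0.46 ± 0.10) and the folliculin partner Fnip2 (-0.59 ± 0.14). The adjusted p of the genes named as having fallen or risen in these lists ran from 0.0237 to 0.0466.

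Set side by side, every role had a median fold change closer to 0 than that of the macrophage markers. The transcription factors had a median log2 fold change of -1.76, the proteases and progranulin -1.002, the glycosidases and sulfatases -0.95, the lipid genes -0.92, the V0 sector -0.77, the V1 sector -0.64, the accessory proteins -0.53 and the membrane proteins -0.34, beside -2.81 for the macrophage list. In flox 3, the summed macrophage markers were at 9318 CPM, above the 3151 CPM of the highest Cre library, and the summed levels of the roles in flox 3 were also above every Cre library, except that the lipid genes, with Psap among them, were at 5154 CPM in both Cre 3 and flox 3. The proteases and progranulin, for example, summed to 3354 to 3718 CPM in Cre and 5802 CPM in flox 3, and the transcription factors to 114 to 125 CPM in Cre and 167 CPM in flox 3. Of 18 stellate markers, 3 were called higher, beside 6.35% of all genes, and 0 lower, and 15 were not called. Their median log2 fold change was 0.47, with 7 of the 18 negative, and their summed levels overlapped, at 4969 to 6377 CPM in Cre and 3744 to 5862 CPM in flox. Endothelial markers had 1 of 10 lower, beside 8.94% of all genes, and 0 higher. Mesothelial markers had 0 of 8 and hepatocyte markers 0 of 10 on either side. The median log2 fold changes of these lists were 0.22, 1.41 and -0.93. The summed mesothelial markers were at 202 to 824 CPM in Cre and 176 to 261 CPM in flox. For endothelial markers the sum was 2726, 4519 and 3293 CPM in Cre 1, 2 and 3. In flox 1, 2 and 3 it was 2100, 1646 and 4694 CPM. Hepatocyte markers summed to 236, 61.5 and 344 CPM in Cre and 174, 309 and 602 CPM in flox. Flox 3 was thus the highest of the 6 libraries in both lists.

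**Figure D5:**
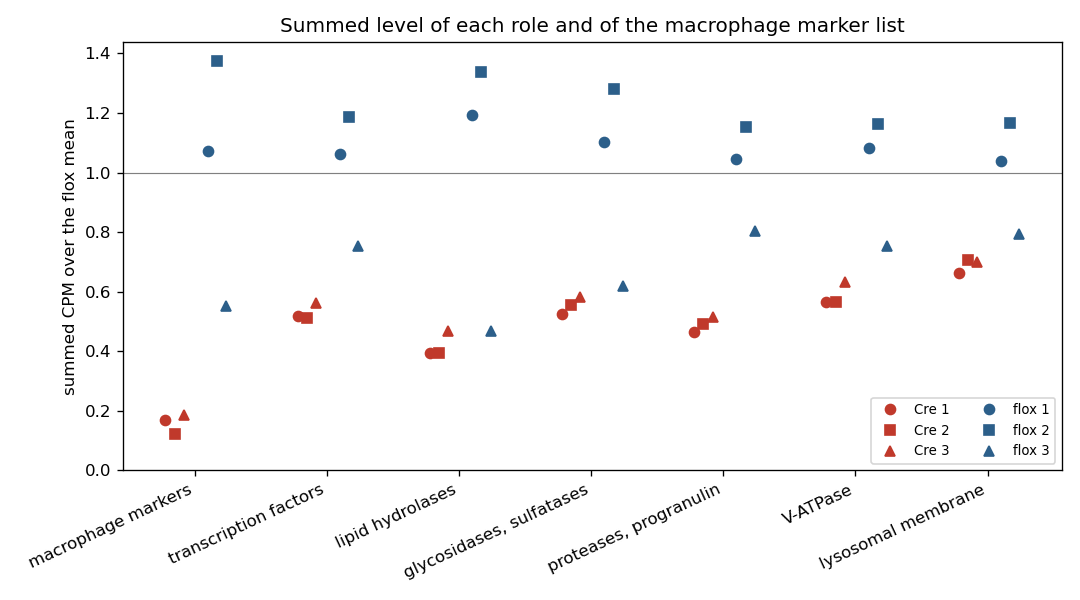
Summed CPM of the macrophage marker list and of 6 groups of the genes (the 16 V-ATPase genes as 1 group), by library, divided by the mean of the 3 flox libraries. The Cre libraries (red) lie lowest for the macrophage markers, at 2036 to 3151 CPM, and flox 3 (blue triangle) is the lowest flox library in each set, level with Cre 3 for the lipid genes and above all Cre libraries in the others.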

How the data were processed

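RNA sequencing was analysed in 6 libraries of primary mouse hepatic stellate cells, 3 titled Cre and 3 titled flox, with groups and replicate numbers from the titles. The authors deposited raw read counts keyed by gene symbol, and every line carries a gene name. The FPKM table, as deposited by the authors, equals the counts divided by library total and 1 length per gene (0 of 11560 genes departed by over 1e-06), so no composition factor enters it. Builds listed in the submitters' processing notes are GRCm38, mm10 and hg38. The aligner, the counter and any use of strand: not given in the sources used here. Overlaps are from GENCODE M21 on GRCm38, promoters from RefSeq on GRCm38.p6.

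Counts were tested with edgeR 4.0.16 (R 4.3.3, limma 3.58.1, DESeq2 1.42.0): filterByExpr (minimum count 10, minimum total 15) left 14795 genes, TMM scaling, a quasi-likelihood F-test (two-sided) with no covariate, and Benjamini-Hochberg adjustment over all genes tested. Standard errors were obtained as the size of the log2 fold change over the root of F, and 95% intervals use 4 degrees of freedom. CPM are TMM-normalised, with SD over 3 libraries. Ratios use log2 of FPKM plus 0.1 and an exact permutation test, which cannot go below p = 0.1. With 284 counts or more per gene and library, counting error is small beside the level of each gene. It is not small beside the spread between libraries where replicates are close, as for Atp6v1d in Cre (97.9 ± 0.932 CPM). Within groups every pair of libraries differed by more than sampling noise (lowest chi-square per gene 33.5). The methods were tested on simulated counts.

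The 44 genes and all lists were chosen with earlier results of these data known. Of 133 other lysosomal genes listed, 126 were matched and 124 tested. Named genes are the called members of lowest p in each role, up to 4, 8 members always, and of each further list the 3 called genes of lowest p and 4 genes always, some of which are not reported here. Alternatives were other scalings, filters and tools, FPKM, each library left out and a replicate block. No sequence of Npc1 is printed.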

Additional observations from a re-analysis of the deposited data

How the results depend on the processing

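Over the 15 alternatives 39 to 42 of the 44 genes kept a negative fold change, and the members' median log2 fold change ran from -0.84 without flox 3 to -0.51 on log2(FPKM + 1). Counts moved more. Members lower numbered 34 in DESeq2, 14 in limma-voom, 12 on log2(FPKM + 1) and 13 on log2(FPKM + 0.1), and 1 member, Smpd1, was higher in DESeq2, with library totals and on both FPKM scales. Over all genes, DESeq2 gave 2358 lower and 1976 higher, limma-voom 826 and 578, and library totals 1415 higher. FPKM values, also without a composition factor, gave 41.6% and 42.3% lower among all calls, and library totals 43.0%, against 58.5% with TMM. Of all genes tested, 6.03% were called lower on log2(FPKM + 1) and 6.83% on log2(FPKM + 0.1), against 8.94% with TMM. Other lysosomal genes lower numbered 68 in DESeq2, 21 in limma-voom, and 20 and 22 on FPKM, and those higher 4 in DESeq2 and 2 with library totals and on both FPKM scales. With 1 library left out, members lower ran from 0 to 37, all genes from 0 to 2882 lower and 0 to 2447 higher, other lysosomal genes from 0 to 78 lower and 0 to 6 higher, and the members' median from -0.84 to -0.59. Fewer libraries leave fewer degrees of freedom, and otherwise the cause was not tested. With the replicate number as a block, 0 members, 0 other lysosomal genes and 0 of all genes passed in either direction, with 29 members lower and 2 higher at an unadjusted p below 0.05. Same-numbered libraries deviated from their group means with correlations of 0.02, -0.15 and -0.08. These values give no sign of pairing by number, but so few libraries cannot show that the samples were not paired. Reversed signs were those of Atp6v1h (0.0773 with library totals, 0.0899 and 0.0919 on the FPKM scales, and from -0.125 to 0.034 with 1 library left out), Lamp2 (0.0665, 0.0588 and 0.0591) and Gaa (0.0552, 0.0537 and 0.0543), the last 2 with library totals and the FPKM scales. The isoform ratios kept their sign, from -2.65 to -1.02 for Atp6v0d2 over Atp6v0d1 and from 0.0028 to 0.22 for Tcirg1 over Atp6v0a1 with 1 library left out.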

Other observations

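The minor isoform genes of the pump had few counts. Atp6v0e2, the alternative small membrane subunit, was at 5.51, 4.46 and 4.01 CPM in Cre 1, 2 and 3 and 2.70, 2.13 and 3.26 CPM in flox 1, 2 and 3, which gave 0.79 ± 0.28 on the log2 scale (adjusted p = 0.0997, edgeR). It made up 2.38 ± 0.537% of the FPKM of both e genes in Cre and 0.974 ± 0.459% in flox. Atp6v1g2, the neuronal form of the stator subunit G, stayed at 0.234% to 0.402% of the FPKM of the G genes in Cre and 0.339% to 0.432% in flox.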
